A study of Mus musculus with 10 samples.

Results

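Microtubule-associated proteins, the kinesin and dynein motors and the proteins that grow with them in axons and dendrites were followed in cultures of newborn mouse cortex with and without depolarization. The list held 40 genes, each described by its annotated transcript with the highest mean RNAseq count. Of these, 31 had a transcript in the counts and 24 were measured, among 4370 measured genes. A transcript was measured when 2 or more cultures each had at least 10 RPKM, reads per kilobase of sequence and 1000000 library reads, in RNAseq and also in ribosome footprints (RF). The members Dpysl5, Nefl, Nefm, Nefh, Kif3c, Kif5a and Mapre1 had reads but did not pass this filter. Of the 24, Kif21a passed through the KCl cultures alone, while the other 23 passed in the untreated cultures by themselves. Map6, Dcx, Dpysl2, Kif2a, Kif5c, Klc2, Dync1h1, Dync1i1 and Dync1i2 were not analysed here.

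The cells came from the cortices of P0 FVB mice and were grown for 7 days as a mix of neurons and glia. There were 3 untreated cultures (1, 2 and 3) and 2 cultures kept in 55 mM KCl for 3 h (4 and 5), and cycloheximide, which stalls ribosomes on the transcript, was present in both groups at 100 ug/ml for the last 7 min. Both an RNAseq and an RF library came from every culture, and these held from 3056286 to 3629959 counted reads for RNAseq and from 1463654 to 7719915 for RF. Whether the cultures came from separate litters is not given in the sources used here, and p-values measure only the spread between these cultures. A lower level in such bulk samples cannot tell fewer cells of a type from less RNA per cell.

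Microtubules are polar tubes of tubulin that fill axons and dendrites. Structural MAPs bind along them, stathmins and collapsin response mediators control their assembly, kinesins carry cargo mostly towards the plus end and dynein with dynactin towards the minus end, and CAMSAP, CLASP and EB proteins act at the ends. Neurofilaments are the intermediate filaments that lie beside microtubules in neurons, and Gap43 is a membrane protein of the growth cone.

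Transcript abundance was taken as normalized RNAseq RPKM over the whole transcript, scaled to the reads on measured transcripts, ribosomal occupancy as normalized RF RPKM over the coding sequence (CDS), and translational efficiency (TE) as the ratio of RF to RNAseq. In the untreated cultures the median member had an RNAseq level of 31.4 RPKM, against 26.9 over 1 measured transcript for each of the 4370 genes. The difference was wider in RF, with a median of 118.3 RPKM for the members and 51.4 for all. The members lay above the median of all genes in 15 of 24 cases for RNAseq and in 17 of 24 for RF. These medians are descriptions and were not tested.

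The highest transcript levels belonged to a stathmin, a structural MAP and a kinesin. Stmn3, a stathmin that binds free tubulin, had the highest RNAseq level, 190.2 ± 25.1 RPKM (SD, n = 3), followed by Map4, the broadly expressed structural MAP, with 158 ± 6.697 RPKM. The axonal kinesin Kif1a, which carries synaptic vesicle precursors, reached 108 ± 9.83 RPKM, and Stmn2, a stathmin of growing axons, 105 ± 23.9 RPKM. These last levels differed by less than their SD. In untreated cultures 1, 2 and 3, 955 of 1509, 1005 of 1631 and 764 of 1297 Kif1a reads lay on the 3′UTR. That region is annotated with 177 of the 5391 bases of the transcript, so the Kif1a level rests largely on a short stretch. In RF the order changed. Dpysl3, a collapsin response mediator that binds tubulin, led with 423 ± 47.3 RPKM, but its distance from Stmn2 with 398 ± 88.9 and that of Stmn2 from Stmn3 with 322 ± 81.4 RPKM were within the SD. Kif21a, a kinesin that slows microtubule growth at the cell edge, was lowest in both assays, with 7.97 ± 1.898 RPKM in RNAseq and 16.9 ± 0.509 RPKM in RF. Reads behind a single value ranged from 86 for Ina to 3433 for Map1b in RNAseq and from 34 for Ina to 10640 for Map1b in RF.

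**Figure D1:**
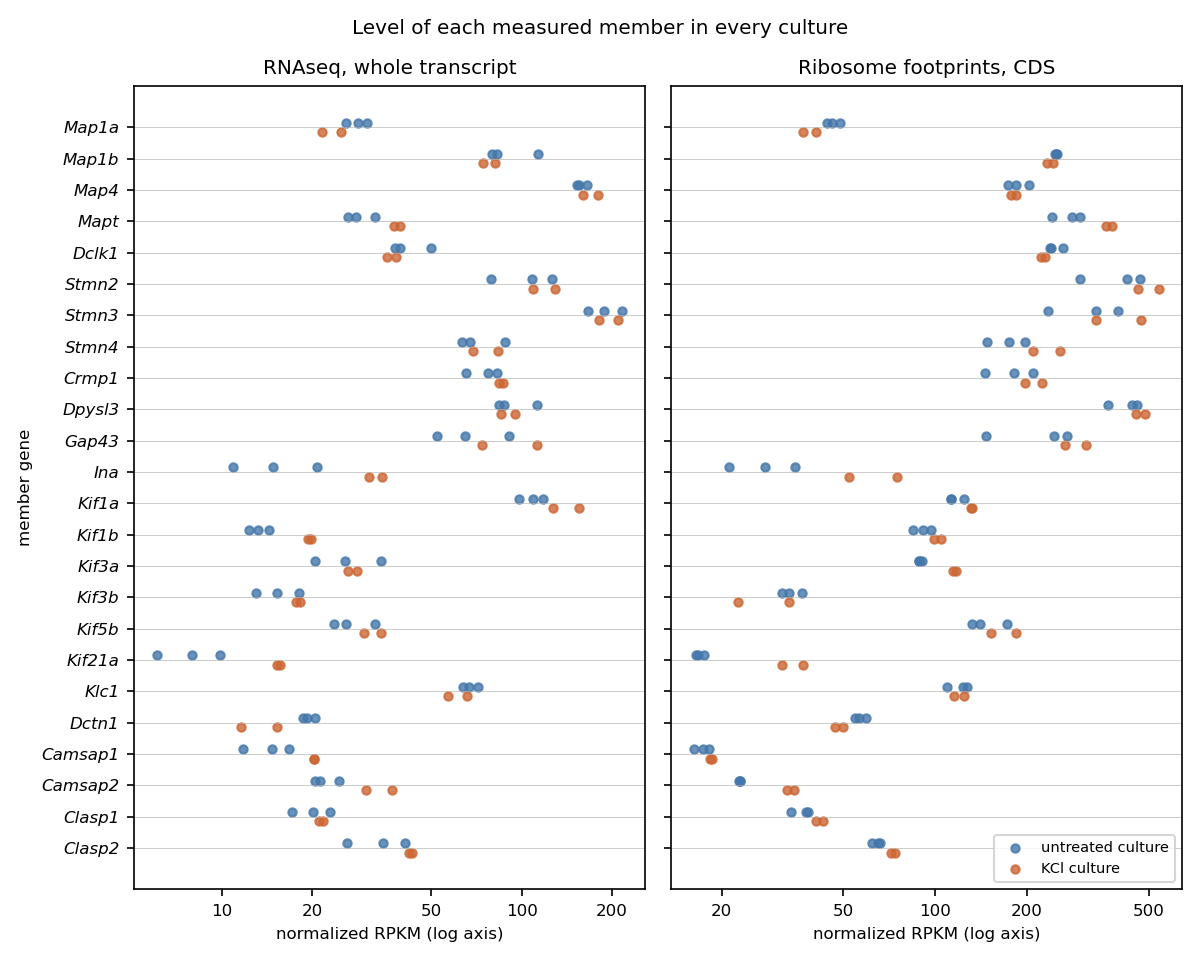
Normalized RPKM on a log axis for the 24 measured members (rows), in RNAseq over the whole transcript (left) and in ribosome footprints over the CDS (right). Each blue point is 1 of 3 untreated cultures and each orange point 1 of 2 KCl cultures. For Ina, Kif21a, Mapt and Camsap2 both KCl points lie to the right of all untreated points in both panels.

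After KCl, 7 of 24 members rose in RNAseq (29.2%) and 1 fell (4.17%). Over all 7262 measured transcripts 17.9% rose and 15.1% fell at the same threshold, an adjusted p under 0.05 in edgeR's quasi-likelihood test, and over 1 transcript per gene 17.3% rose. The median log2 fold change of the members was 0.19, against -0.0045 for all measured transcripts. In RF, 6 members rose (25%) and 1 fell, while 20.8% of all transcripts rose and 20.1% fell, and 20.8% rose over 1 transcript per gene. The median of the members was 0.17 in RF and that of all transcripts -0.01. Without Kif21a, which the filter let in for its level after KCl, 6 of 23 rose in RNAseq and 5 of 23 in RF. Of all 7262 transcripts, 542 were measured only with the KCl cultures. These stay in the shares over all transcripts, so the sets are not alike. The members that rose in both assays were Ina, Kif21a, Camsap2 and Mapt. Camsap1, Kif1a, Kif1b and Dctn1 passed in RNAseq only, Stmn4, Kif3a and Map1a in RF only, and 13 passed in neither. Passing in 1 assay and not in the other does not show that the assays differed, which is what the change in TE tests. Standard errors (SE) given with log2 fold changes are approximate and were derived from the test statistic.

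**Figure D2:**
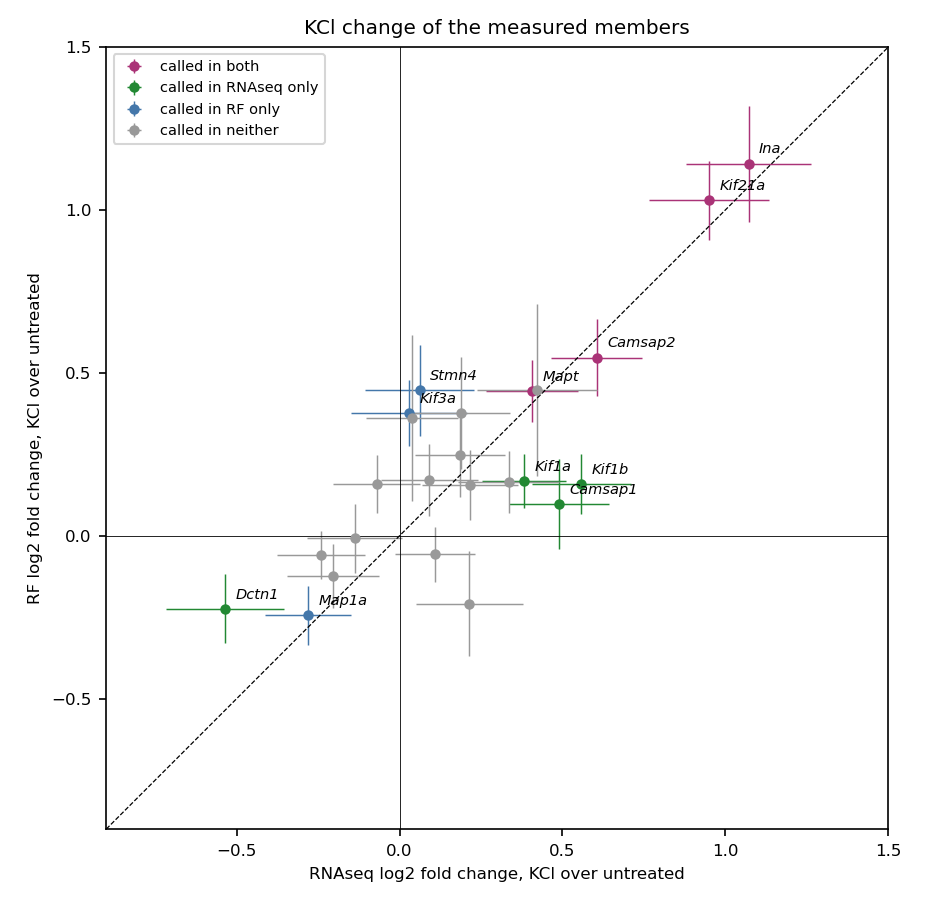
Log2 fold change of KCl over untreated cultures in RNAseq (x axis) and RF (y axis) for the 24 measured members, with approximate SE as bars. The dashed line marks equal change, and colour marks the assays in which a member passed an adjusted p of 0.05. Ina and Kif21a stand at about 1 on both axes and Dctn1 has the lowest RNAseq value.

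Of the neurofilament genes, only Ina was measured, which encodes alpha-internexin, the intermediate filament protein of young neurons. Its RNAseq level was 20.8, 14.8 and 10.9 in untreated cultures 1, 2 and 3 and 34.2 and 30.99 in KCl cultures 4 and 5, in RPKM. Both KCl cultures lay above all untreated cultures, though the untreated ones spread widely. The log2 fold change was 1.07 ± 0.19 (SE), adjusted p = 2.31e-05, a 2.101-fold rise. In RF the level was 34.8, 27.8 and 21.2 in untreated cultures 1, 2 and 3 and 52.1 and 75.3 in KCl cultures 4 and 5, and the log2 fold change was 1.14 ± 0.18 (SE), adjusted p = 2.30e-05. In RF Ina passed under each of the 10 alternatives run. In RNAseq it missed the threshold only when CDS reads alone were counted, with a log2 fold change of 0.67 and an adjusted p of 0.09796, where 98 reads stood for the 3 untreated cultures. The alternative with the transcript of the highest RF count used the same transcript for Ina, Mapt and Camsap2. For these members it repeats the main result.

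Among the kinesin heavy chains, the motor subunits that walk along the microtubule, 3 of 6 measured members rose in RNAseq and 2 in RF, and none fell, where 17.9% and 20.8% of all measured transcripts rose. Without Kif21a the counts were 2 of 5 in RNAseq and 1 of 5 in RF. Kif21a had RNAseq levels of 9.88, 7.95 and 6.08 in untreated cultures 1, 2 and 3 and 15.6 and 15.2 in KCl cultures 4 and 5, in RPKM. The KCl cultures were close to each other and above the untreated range. The log2 fold change was 0.95 ± 0.18 (SE), adjusted p = 7.96e-05, a 1.93-fold rise. Its RF levels were 16.5, 17.5 and 16.7 in untreated cultures 1, 2 and 3 and 31.5 and 36.9 in KCl cultures 4 and 5, again without overlap, and the log2 fold change was 1.03 ± 0.12 (SE), adjusted p = 9.74e-08. Kif21a passed under each alternative run in both assays, 11 in RNAseq and 10 in RF, and all 5 of its measured transcripts passed in both, with log2 fold changes between 0.91 and 0.99 in RNAseq and between 1.01 and 1.03 in RF. These transcripts share reads and are not independent. Kif21a passed the filter through the KCl cultures only. In the edgeR fit without a filter its adjusted p-values were 5.03e-07 in RNAseq and 8.16e-16 in RF. That fit uses the same counts with its own scaling and is no separate support. It gave smaller adjusted p-values for Ina as well, 5.30e-09 in RNAseq and 3.38e-13 in RF.

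Kif1b, a kinesin of mitochondria and synaptic vesicle precursors, had RNAseq levels of 14.4, 13.2 and 12.3 in untreated cultures 1, 2 and 3 and 19.8 and 19.3 in KCl cultures 4 and 5. Both KCl cultures exceeded the untreated ones by more than their spread, with a log2 fold change of 0.56 ± 0.15 (SE), adjusted p = 0.003605. The call was lost when CDS reads alone were counted (adjusted p = 0.0991). In RF the change was smaller, from 91.1, 96.7 and 84.95 RPKM in the untreated to 99.2 and 105 RPKM in the KCl cultures, and did not pass (log2 fold change 0.16, adjusted p = 0.168). Kif1a had RNAseq levels of 109, 118 and 98.4 in untreated cultures 1, 2 and 3 and 127 and 156 in KCl cultures 4 and 5. The log2 fold change was 0.38 ± 0.13 (SE), adjusted p = 0.0182. Most of its RNAseq reads lay on the 177-base 3′UTR in every culture. The KCl cultures were both above the untreated range but differed from each other, and the call was lost without KCl culture 5 (adjusted p = 0.365), without untreated culture 3 (0.105), with CDS reads only (0.167) and with library totals in place of TMM (0.073002). RF of Kif1a was 124, 113 and 113 RPKM in the untreated and 132 and 131 RPKM in the KCl cultures (log2 fold change 0.17, adjusted p = 0.106).

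Kif3a, a motor subunit of heterotrimeric kinesin-2, showed the other pattern. Its RNAseq levels, 33.97, 20.5 and 25.7 in untreated cultures 1, 2 and 3 and 26.3 and 28.3 in KCl cultures 4 and 5, overlapped between the groups (log2 fold change 0.03, adjusted p = 0.921). Its RF levels were 90.5, 88.5 and 88.6 in untreated cultures 1, 2 and 3 and 114 and 117 in KCl cultures 4 and 5, with almost no spread within either group. The RF log2 fold change was 0.38 ± 0.10 (SE), adjusted p = 0.00346, and without KCl culture 5 the adjusted p was 0.0796. Kif3b, its partner subunit, and Kif5b, a conventional kinesin found in most cells, did not pass in either assay, with RNAseq log2 fold changes of 0.21 and 0.22 and RF log2 fold changes of -0.21 and 0.16. Klc1, the measured light chain, which links conventional kinesin to cargo, had RNAseq levels of 71.8, 63.8 and 66.7 in untreated cultures 1, 2 and 3 and 65.98 and 56.7 in KCl cultures 4 and 5 and likewise did not pass (log2 fold change -0.14, adjusted p = 0.511). Its RF log2 fold change was -0.01 (adjusted p = 0.958).

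Dctn1 was the member of the dynein side that could be measured and the member that fell in RNAseq. It encodes the dynactin subunit that binds both dynein and the microtubule. Its RNAseq levels were 18.7, 20.5 and 19.3 in untreated cultures 1, 2 and 3 and 11.6 and 15.2 in KCl cultures 4 and 5, without overlap, and the log2 fold change was -0.54 ± 0.18 (SE), adjusted p = 0.0189. All 5 of its measured transcripts passed, between -0.56 and -0.52, but these can share reads and are not independent. The call was lost without KCl culture 4 (adjusted p = 0.279), without untreated culture 2 (0.05202) and with no filter on low values (0.0502). RF was 56.3, 54.7 and 59.2 RPKM in the untreated and 49.995 and 46.9 RPKM in the KCl cultures, also without overlap, and did not pass (log2 fold change -0.22, adjusted p = 0.0918). The RF change did pass with library totals and without untreated culture 2.

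Of the proteins that act at microtubule ends, 2 of 4 measured members rose in RNAseq and 1 in RF, and none fell, beside the same shares of 17.9% and 20.8% over all transcripts. Camsap2 caps the minus ends of microtubules that are not attached to a centrosome, which most microtubules in neurites are not. Its RNAseq levels were 24.6, 21.3 and 20.4 in untreated cultures 1, 2 and 3 and 36.9 and 30.4 in KCl cultures 4 and 5, in RPKM. The groups did not overlap, and the log2 fold change was 0.60 ± 0.14 (SE), adjusted p = 7.43e-04, a 1.52-fold rise that missed the threshold without KCl culture 4 (adjusted p = 0.0705). In RF the untreated cultures were almost equal, at 22.96, 22.999 and 22.8 in untreated cultures 1, 2 and 3 and 34.5 and 32.7 in KCl cultures 4 and 5. The RF log2 fold change was 0.55 ± 0.12 (SE), adjusted p = 4.90e-04, and it passed under each of the 10 alternatives. Camsap1, a related minus-end protein, rose in RNAseq from 16.8, 14.7 and 11.8 RPKM in the untreated to 20.3 and 20.2 RPKM in the KCl cultures, with a log2 fold change of 0.49 ± 0.15 (SE), adjusted p = 0.0111. That call was lost without untreated culture 3 (adjusted p = 0.09796) and without KCl culture 4 (0.0672) or 5 (0.0647). Its RF was 18.2, 16.2 and 17.4 RPKM in the untreated and 18.4 and 18.6 RPKM in the KCl cultures (log2 fold change 0.10, adjusted p = 0.602).

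Clasp2, which stabilizes plus ends and had the highest RNAseq level of this group, had RNAseq levels of 40.8, 26.1 and 34.4 in untreated cultures 1, 2 and 3 and 43.2 and 42.02 in KCl cultures 4 and 5. The KCl cultures were the highest, but untreated culture 1 came close to them and the change did not pass (log2 fold change 0.33, adjusted p = 0.09499). Its RF log2 fold change was 0.17 (adjusted p = 0.164), and Clasp1, its paralog, did not pass either, at 0.09 in RNAseq and 0.17 in RF.

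Among the 4 measured structural MAPs, Mapt rose in both assays and Map1a fell in RF. Mapt encodes tau, the MAP of axons. Its RNAseq levels were 32.5, 27.9 and 26.4 in untreated cultures 1, 2 and 3 and 37.4 and 39.3 in KCl cultures 4 and 5, and its RF levels were 298, 242 and 280.2 in untreated cultures 1, 2 and 3 and 362 and 379.5 in KCl cultures 4 and 5. The groups did not overlap in either assay. The log2 fold change was 0.41 ± 0.14 (SE), adjusted p = 0.0238 in RNAseq and 0.44 ± 0.10 (SE), adjusted p = 4.59e-04 in RF. In RF it passed under each of the 10 alternatives and for all 3 measured transcripts, which can share reads and are not independent. The RNAseq call did not, since it was lost without untreated culture 2 (adjusted p = 0.0705) or 3 (0.103), without KCl culture 4 (0.0914) or 5 (0.169), with CDS reads only (0.191) and with library totals (0.0832), and only 1 of the 3 transcripts passed.

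Map1a, a MAP of mature dendrites, had RF levels of 45.9, 44.4 and 48.9 in untreated cultures 1, 2 and 3 and 36.9 and 40.7 in KCl cultures 4 and 5, with both KCl cultures below the untreated range. The log2 fold change was -0.24 ± 0.09 (SE), adjusted p = 0.0306. The call was lost under 6 of 10 alternatives, namely with DESeq2 (adjusted p = 0.0826), with no filter on low values (0.195), without untreated culture 1 (0.0515) or 3 (0.0782) and without KCl culture 4 (0.301) or 5 (0.0821). RNAseq of Map1a was 28.4, 30.4 and 26.04 RPKM in the untreated and 21.6 and 24.9 RPKM in the KCl cultures (log2 fold change -0.28, adjusted p = 0.0998). Map4 had RNAseq levels of 153, 166 and 156 in untreated cultures 1, 2 and 3 and 161 and 180.3 in KCl cultures 4 and 5 and did not pass (log2 fold change 0.11, adjusted p = 0.533), and 1 of its 4 measured transcripts, other than the one used here, rose. Map1b, a MAP of growing axons with more reads than any other member, did not pass in RNAseq (-0.24) or in RF (-0.06, adjusted p = 0.545).

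Stathmins release tubulin from microtubules. All 3 had positive log2 fold changes in RF, between 0.36 and 0.45, and near 0 in RNAseq, between 0.04 and 0.19, and 1 passed. Stmn4 had RF levels of 197, 148 and 175 in untreated cultures 1, 2 and 3 and 209 and 257 in KCl cultures 4 and 5, without overlap, and the log2 fold change was 0.45 ± 0.14 (SE), adjusted p = 0.01102. Its RNAseq levels, 88.1, 63.2 and 67.1 in untreated cultures 1, 2 and 3 and 83.6 and 68.6 in KCl cultures 4 and 5, overlapped (log2 fold change 0.06, adjusted p = 0.815). The RF call was lost without KCl culture 5 (adjusted p = 0.366) and with library totals (0.0691). Stmn3 had RF levels of 396, 235 and 336 in untreated cultures 1, 2 and 3 and 338 and 472 in KCl cultures 4 and 5, where untreated culture 2 was far below the other libraries and the change did not pass (log2 fold change 0.36, adjusted p = 0.31001). RNAseq of Stmn3 was 188, 166 and 216 RPKM in the untreated and 181 and 209.7 RPKM in the KCl cultures (log2 fold change 0.04, adjusted p = 0.867). Stmn2 did not pass in RF either (log2 fold change 0.38, adjusted p = 0.107), though it did with no filter and without untreated culture 1 or 3. Untreated culture 2 was its lowest library in both assays.

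Gap43 was likewise lowest in untreated culture 2. Its RNAseq levels were 90.7, 52.2 and 64.5 in untreated cultures 1, 2 and 3 and 112 and 73.6 in KCl cultures 4 and 5, and its RF levels were 246, 146 and 271 in untreated cultures 1, 2 and 3 and 266 and 311 in KCl cultures 4 and 5. The groups overlapped in both assays and neither change passed, with log2 fold change 0.42, adjusted p = 0.0745 in RNAseq and log2 fold change 0.45, adjusted p = 0.2298 in RF. The RNAseq change did pass with CDS reads only, with no filter and without untreated culture 1, and the RF change with no filter. Dpysl3 had RNAseq levels of 113, 84.2 and 87.3 in untreated cultures 1, 2 and 3 and 95.03 and 85.6 in KCl cultures 4 and 5 (log2 fold change -0.07, adjusted p = 0.726), and RF levels of 458, 369 and 441 in untreated cultures 1, 2 and 3 and 456 and 485 in KCl cultures 4 and 5 (log2 fold change 0.16, adjusted p = 0.154). Crmp1, its relative in axon guidance, was at 0.19 in RNAseq and 0.25 in RF. Neither passed. Dclk1, of the doublecortin family that binds microtubules, was read from a transcript with a CDS of 1089 bases. Its RNAseq levels were 49.98, 39.2 and 37.7 in untreated cultures 1, 2 and 3 and 37.99 and 35.5 in KCl cultures 4 and 5. The change did not pass (log2 fold change -0.21, adjusted p = 0.279), and the 3 measured transcripts of Dclk1 ran from -0.21 to 0.36 in RNAseq.

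**Figure D3:**
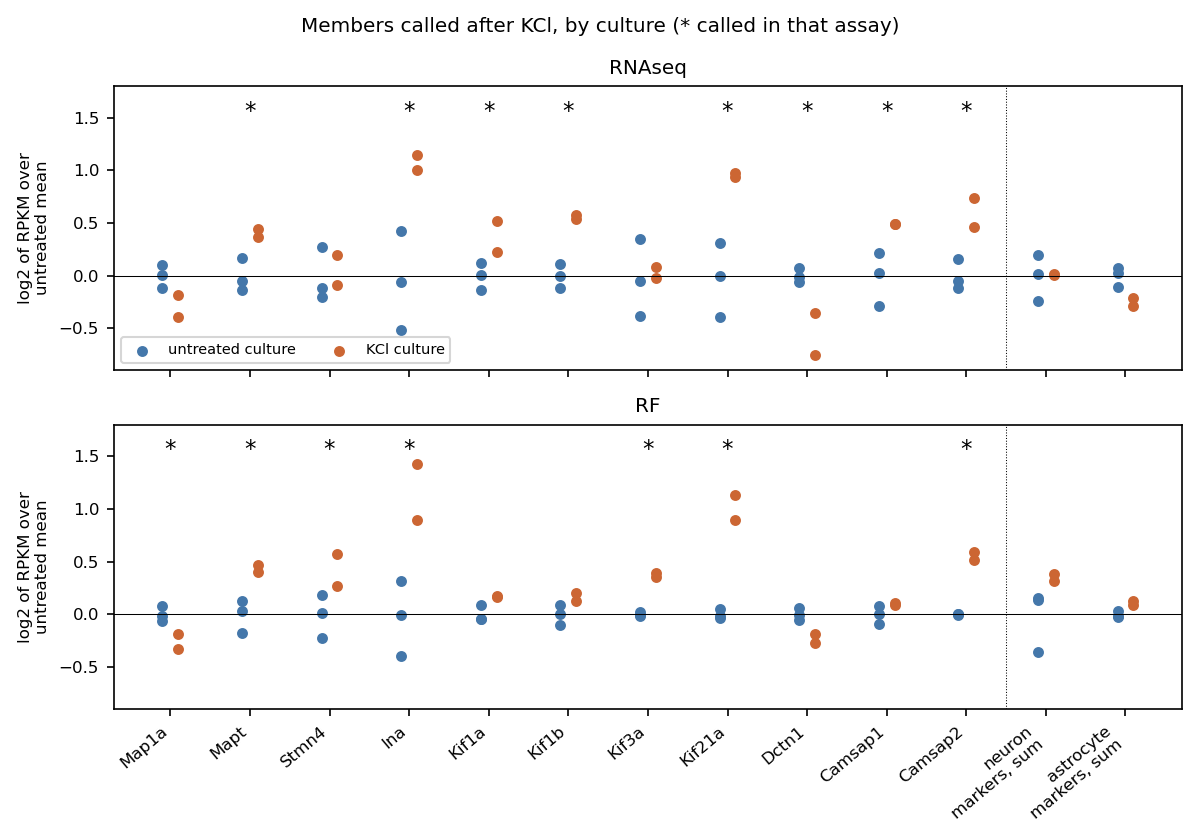
Log2 of each culture's normalized RPKM over the mean of the untreated cultures, for the 11 members that passed in RNAseq (top) or RF (bottom), and for the summed level of the neuron and astrocyte marker lists. Blue points are the 3 untreated cultures, orange points the 2 KCl cultures, and a star marks a member with an adjusted p under 0.05 in that assay. Both KCl points of Ina and Kif21a lie near 1 or above in each panel, while the summed neuron markers stand at 0 in RNAseq and above all untreated cultures in RF.

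The summed neuron markers were higher in the KCl cultures in RF and not in RNAseq. The 16 neuron markers with reads, of 18 on the list, summed to 369, 272 and 325 RPKM in the untreated and 323 and 325 RPKM in the KCl cultures in RNAseq, where the KCl cultures lay inside the untreated range, and 1 of the 7 measured neuron markers rose. In RF the sum was 719, 504 and 708 RPKM in the untreated and 805 and 838 RPKM in the KCl cultures, with both KCl cultures above all untreated ones (exact two-sided permutation test p = 0.2, the smallest possible being 0.1), and 3 of 7 rose. Untreated culture 2 was the lowest in both sums. Tubb3, a beta-tubulin on the neuron list, had a large part in the RNAseq sum. Its RNAseq levels were 94.98, 105.7 and 132 in untreated cultures 1, 2 and 3 and 73.5 and 99.7 in KCl cultures 4 and 5. Its log2 fold change was -0.35 (adjusted p = 0.0741), and the sum without Tubb3 was not taken. Summed astrocyte markers, 11 of 12, were 3906, 4429 and 4286 RPKM in the untreated and 3438 and 3621 RPKM in the KCl cultures in RNAseq and 15509.6, 15396 and 15992 RPKM in the untreated and 16613 and 17039 RPKM in the KCl cultures in RF. Both KCl cultures were below all untreated ones in RNAseq (exact two-sided permutation test p = 0.2), where 0 of 11 astrocyte markers rose and 4 fell, and above them in RF (p = 0.1 in the same exact test), where 4 rose and 1 fell. Over all measured transcripts 17.9% rose and 15.1% fell in RNAseq, and 20.8% rose and 20.1% fell in RF. No marker with reads on either list was at 0 in all 5 cultures. The part of neuronal content in the changes of the members was not tested.

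Microglia markers, 10 of 11, summed to between 217 and 258 RPKM in RNAseq and between 532 and 678 in RF. The oligodendrocyte lineage markers, 10 of 10, summed to between 1677 and 1929 RPKM in RNAseq and between 1629 and 2005 in RF, the fibroblast and vascular markers, 9 of 10, to between 188 and 251 and between 553 and 785, and the markers of dividing cells, 7 of 8, to between 62.5 and 76.1 and between 217 and 266. Among these 4 lists, the fibroblast and vascular markers in RF were lower in both KCl cultures than in all untreated ones, and microglia markers in RNAseq likewise (exact permutation p = 0.1 each), as were oligodendrocyte lineage markers in RNAseq (exact permutation p = 0.2).

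The promoters of the members that rose in both assays are shown because these transcripts changed together. RefSeq promoter sequences were found for 17 of the 24 measured members, and among the 4 that rose in both assays for Camsap2, Ina and Kif21a. The 250 bases before the RefSeq start site are given 5′ to 3′ on the strand of the gene, in GRCm38.p6. Camsap2 lies at chr1:136346105-136346354 on the minus strand, Ina at chr19:47014431-47014680 on the plus strand and Kif21a at chr15:91049952-91050201 on the minus strand. The start of the counted transcript was at the same base as the RefSeq start for Camsap2, 17 bases away for Ina and 113 bases away for Kif21a. Capitals mark the GC box GGGCGG on either strand, which reads CCGCCC where it lies on the other strand.
Camsap2: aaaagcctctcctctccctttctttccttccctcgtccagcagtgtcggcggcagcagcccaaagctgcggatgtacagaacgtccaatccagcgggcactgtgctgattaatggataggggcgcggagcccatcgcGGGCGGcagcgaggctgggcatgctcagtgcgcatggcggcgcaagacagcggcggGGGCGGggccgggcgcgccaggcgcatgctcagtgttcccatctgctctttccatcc
Ina: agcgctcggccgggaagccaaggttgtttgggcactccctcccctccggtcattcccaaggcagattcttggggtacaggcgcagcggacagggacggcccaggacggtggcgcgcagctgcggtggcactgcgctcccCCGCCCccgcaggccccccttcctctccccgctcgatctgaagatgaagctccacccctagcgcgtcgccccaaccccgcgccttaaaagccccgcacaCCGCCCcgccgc
Kif21a: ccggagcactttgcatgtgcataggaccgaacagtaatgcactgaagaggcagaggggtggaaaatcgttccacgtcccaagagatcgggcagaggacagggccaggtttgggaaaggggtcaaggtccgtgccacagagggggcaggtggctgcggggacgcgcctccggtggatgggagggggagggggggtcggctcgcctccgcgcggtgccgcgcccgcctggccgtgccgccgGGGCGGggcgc
The GC box was present in 2 copies in Camsap2 and in Ina and in 1 copy in Kif21a, and in 12 of the 17 promoters in all. Of 27025 promoters, 1 for each symbol in the table, 32.9% held it. This background also holds genes that were not measured, unlike the 17. No share over the measured genes alone was taken for any motif, so the shares are not for like sets. TGACG is the core of the cyclic AMP response element, through which depolarization is known to act on transcription. It was in none of these 3 windows, in 7 of the 17, and in 17.9% of all. The 7 were Map4, Crmp1, Kif1a, Kif1b, Kif3b, Klc1 and Clasp2, of which Kif1a and Kif1b rose in RNAseq. The full element TGACGTCA, which overlaps TGACG, was in the promoters of Klc1 and Clasp2, neither of which passed in RNAseq or RF, and in 1.62% of all promoters. The AP-1 site TGANTCA was in 0 of the 17 and in 6.87% of all. Both strands were searched. A match is no evidence of binding, and no match says only that the letters are not in these 250 bases.

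TE, the ratio of both assays, passed the test of a change with KCl in none of the 24 members. By edgeR 0 of 24 had an adjusted p under 0.05 and 1 of 24, Kif1b, an unadjusted p under 0.05. DESeq2 called 0 of 24, with 0 at an unadjusted p under 0.05. Over all measured transcripts 5.80% passed in either direction. The median log2 fold change of TE was 0.07 for the members and 0.01 for all. The values farthest from 0 were those of Kif3b (-0.47 ± 0.25 (SE), adjusted p = 0.311), Kif1b (-0.39 ± 0.19 (SE), adjusted p = 0.258) and Stmn4 (0.39 ± 0.23 (SE), adjusted p = 0.377), named after their values were seen. Kif1b had TE of 6.35, 7.32 and 6.92 in untreated cultures 1, 2 and 3 and 5.01 and 5.42 in KCl cultures 4 and 5, with both KCl cultures below the untreated ones. An adjusted p above 0.05 does not show that TE stayed equal. For Ina the TE log2 fold change was 0.12 with an SE of 0.25, and for Kif21a it was 0.08 with an SE of 0.24.

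In the untreated cultures, TE of the measured members ran from 1.04 to 9.48. The median TE was 2.301 for the 24 members and 1.82 over 1 transcript per gene, and 17 of 24 members lay above the latter. Mapt had the highest TE, 9.48 ± 1.02 (SD, n = 3), with 9.17, 8.66 and 10.6 in untreated cultures 1, 2 and 3 and 9.67 and 9.65 in KCl cultures 4 and 5. Kif1b followed with 6.86 ± 0.487, Dclk1 with 5.93 ± 1.08, Kif5b with 5.56 ± 1.54 and Dpysl3 with 4.496 ± 0.508. At the other end were Camsap2 with 1.04 ± 0.0983, Kif1a with 1.08 ± 0.108, Map4 with 1.18 ± 0.0584 and Camsap1 with 1.22 ± 0.219. In this order only 3 of 23 neighbouring pairs stood apart by more than the larger SD of the pair, namely Mapt above Kif1b, Dpysl3 above Stmn2 and Map1a above Camsap1.

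The order depended on which RNAseq reads formed the denominator. With CDS RNAseq reads over CDS length, the median rose to 3.31, and to 2.38 over 1 transcript per gene, again with 17 of 24 members above it. Mapt stayed high at 8.199 ± 1.41, as did Dclk1 at 5.95 ± 0.497, and Camsap2, Map4 and Camsap1 stayed low at 1.12 ± 0.1596, 1.13 ± 0.0663 and 1.23 ± 0.124. Stmn4 went from 2.39 ± 0.193 to 14.6 ± 2.36, since 53 of its 720 RNAseq reads in the untreated cultures lay on the CDS. Crmp1 went from 2.37 ± 0.149 to 6.57 ± 0.176 and Kif1a from 1.08 ± 0.108 to 2.82 ± 0.313. For these members the density of RNAseq reads on the CDS was 0.169, 0.362 and 0.383 times that over the transcript, against a median of 0.855 over 1 transcript per gene. Dpysl3 went to 8.92 ± 0.752, Klc1 from 1.78 ± 0.1498 to 4.12 ± 0.273 and Ina from 1.84 ± 0.144 to 3.45 ± 1.05, so that the place of these 6 members in the order depends on the denominator.

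**Figure D4:**
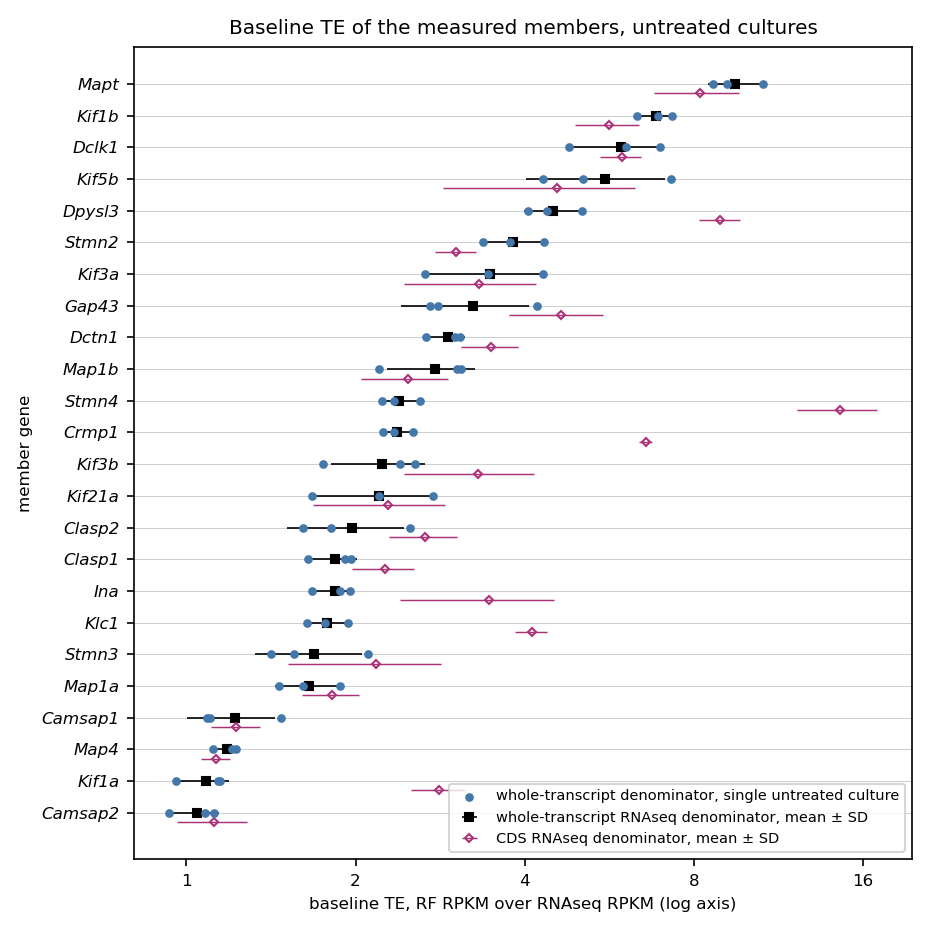
Baseline TE on a log axis for the 24 measured members in the 3 untreated cultures. Black squares are means ± SD and blue points single cultures with whole-transcript RNAseq in the denominator, and open diamonds are means ± SD with CDS RNAseq in the denominator. Mapt is highest with the first denominator and Stmn4 with the second, and Camsap2 is lowest with both.

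The start codons of 3 members with high and 3 with low TE under both denominators are shown, with Dpysl3, also high under both, left out, since recognition of the start codon is a step at which translation is controlled. Each line gives 9 bases before the start codon, the codon in capitals, and 6 bases after it, in the mature transcript (GRCm38, each within 1 exon). Mapt (chr11:104282372-104282389, plus strand), Dclk1 (chr3:55247142-55247159, plus) and Kif1b (chr4:149291399-149291416, minus) had high TE, and Camsap2 (chr1:136345429-136345446, minus), Map4 (chr9:109978860-109978877, plus) and Camsap1 (chr2:25982930-25982947, minus) had low TE. Klc1, whose annotated 5′UTR has 1 base, is left out of the counts given with them.
Mapt: tgaaccagtATGgctgac
Dclk1: aagccagccATGtcgttc
Kif1b: gccatcagaATGtcggga
Camsap2: ccgtgaaagATGggggat
Map4: tggtacagaATGgccgac
Camsap1: tgtctgcagATGgtggac
A purine 3 bases before the start codon, the strongest feature of a favourable context, was present in all 3 members with high TE and in 2 of 3 with low TE. Camsap1 had a pyrimidine there. G directly after the codon was present in all 3 with low TE and, of those with high TE, in Mapt only. Over 23 members the purine was present in 91.3% and G in 52.2%, and over 4324 measured genes in 87.7% and 51.7%. Neither feature separated these 3 members with high TE from the 3 with low TE.

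Footprints on the 5′UTR were counted separately from those on the CDS. In 15 of the measured members at least 50 footprints lay on the 5′UTR. For Camsap2, whose 667-base 5′UTR holds 3 upstream AUG codons, they made up 14.01%, 12.04% and 19.3% in untreated cultures 1, 2 and 3 and 21.4% and 26.7% in KCl cultures 4 and 5 of the footprints of the transcript. Both KCl cultures were above all untreated cultures. For Kif1b, with 2 upstream AUG codons in 264 bases, the share was 5.36%, 3.01% and 6.85% in untreated cultures 1, 2 and 3 and 9.18% and 18.2% in KCl cultures 4 and 5, again without overlap but with KCl culture 5 far above culture 4. Clasp1, Camsap1 and Kif1a had the same order, with shares below those of Camsap2, and Mapt the opposite one, with 3.54%, 4.32% and 5.79% in untreated cultures 1, 2 and 3 and 2.76% and 2.24% in KCl cultures 4 and 5. In all, both KCl cultures lay above the untreated ones in 5 of 15 members and below them in 1, against 18.7% above and 10.5% below among 2193 genes counted the same way. Over all transcripts the 5′UTR held between 6.04% and 8.56% of footprints in the untreated and between 6.94% and 7.54% in the KCl cultures. The rises of Camsap2 and Kif1b rest on 47 and 39 footprints in KCl culture 4 and on 114 and 174 in culture 5. Upstream AUG codons were found in the 5′UTR of Stmn4 (4), Stmn2 (3), Clasp1 (3) and Kif5b (2) as well. Dclk1, Kif1a, Kif3b, Kif21a, Camsap1 and Clasp2 had 1 each. There was none in Mapt, Ina, Map1a, Map1b, Map4, Stmn3, Crmp1, Dpysl3, Gap43, Kif3a, Dctn1 and Klc1.

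**Figure D5:**
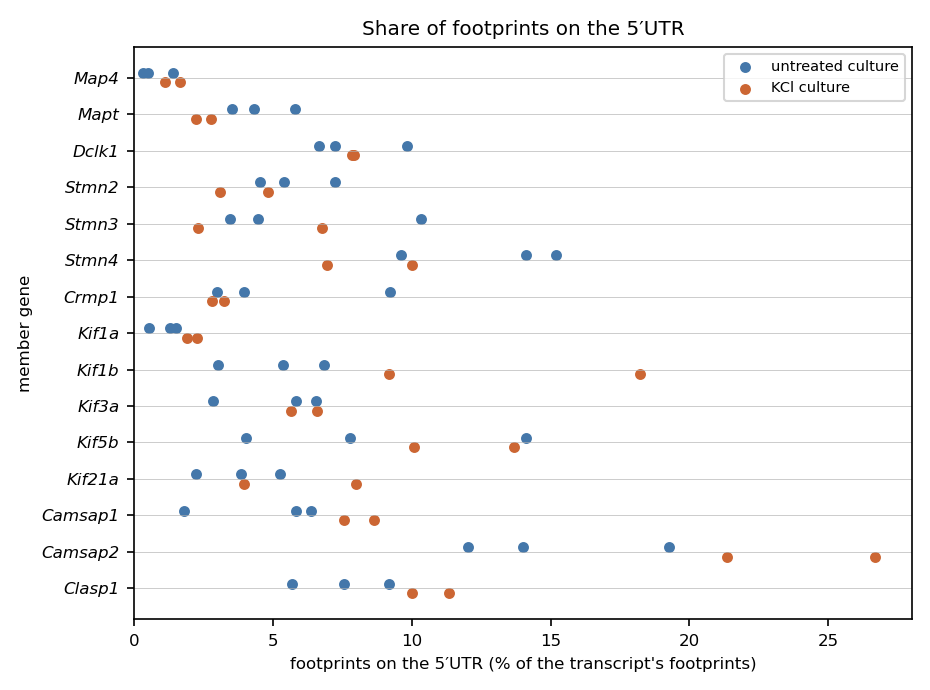
Percent of each transcript's footprints that lie on the 5′UTR, for the 15 measured members with at least 50 such footprints over the 5 cultures. Blue points are the 3 untreated and orange points the 2 KCl cultures. Camsap2, highest in every culture but culture 1, where Stmn4 is slightly above it, has shares between 12.04% and 19.3% in the untreated and between 21.4% and 26.7% in the KCl cultures.

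The 7 members with reads that did not pass the filter were read from a fit without it, in which 18.7% of 22018 transcripts were called in RNAseq and 23.9% in RF. That fit had its own scaling, while the RPKM given here keep the scaling of the main fit. Its fold changes are therefore not on the scale of the 24 measured members. For Mapt in RNAseq the log2 fold change was 0.47 without the filter and 0.41 in the main fit. Kif5a, the conventional kinesin of neurons, had RF levels of 31.2, 25.6 and 24.3 in untreated cultures 1, 2 and 3 and 33.2 and 34.9 in KCl cultures 4 and 5 and rose in RF (log2 fold change 0.38, adjusted p = 0.0332), and its RNAseq change did not pass (0.41). Dpysl5, a collapsin response mediator, rose in RF (log2 fold change 0.64, adjusted p = 0.0117) from 103, 71.2 and 113 RPKM in the untreated to 107 and 156 RPKM in the KCl cultures, where the groups overlapped. Its transcript here has a CDS of 291 bases and between 1 and 6 RNAseq reads per culture. Mapre1, which encodes the plus-end protein EB1, rose in RNAseq from 31.3, 29.3 and 31.4 RPKM in the untreated to 41.5 and 41.7 RPKM in the KCl cultures (log2 fold change 0.50, adjusted p = 0.003402). It had 0 RNAseq reads on the CDS in the untreated cultures and 69.9% of its footprints on the 5′UTR, so that its TE has no meaning here. Nefh, the heavy neurofilament subunit, passed in RF (log2 fold change -2.36, adjusted p = 0.0424) on 29, 14 and 0 footprints without KCl and 1 in either KCl culture, where the groups overlapped. The light and medium subunits Nefl and Nefm, with RNAseq levels between 0.923 and 4.26 RPKM, and Kif3c, a kinesin-2 of neurons, did not pass in either assay.

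Other genes of the microtubule system were taken from lists that the members are not part of. Among 17 measured partners of dynein, 3 rose and 2 fell in RNAseq and 4 rose and 1 fell in RF, with medians of 0.05 and 0.07. At the same threshold 17.9% of all measured transcripts rose and 15.1% fell in RNAseq, and 20.8% rose and 20.1% fell in RF. The rises among the partners of dynein were near these shares, which also stand beside the counts of the lists that follow. Ndel1, a regulator of dynein, had the largest change, with RNAseq levels of 8.82, 14.2 and 13.7 in untreated cultures 1, 2 and 3 and 67.5 and 59.1 in KCl cultures 4 and 5 (log2 fold change 2.37, adjusted p = 1.77e-13), a 5.15-fold rise, and an RF log2 fold change of 1.94. Dync1li1, a dynein light intermediate chain that binds cargo adaptors, rose from 26.8, 23.1 and 22.6 RPKM in the untreated to 60.5 and 65.8 RPKM in the KCl cultures in RNAseq (log2 fold change 1.39, adjusted p = 2.36e-09) and by 1.40 in RF. Trak1, which joins mitochondria to motors, rose in RNAseq (log2 fold change 0.78, adjusted p = 1.68e-05), did not pass in RF (log2 fold change 0.02, adjusted p = 0.927) and fell in TE (log2 fold change -0.81, adjusted p = 0.00888). Pafah1b1, the dynein regulator Lis1, rose in RF (log2 fold change 0.55, adjusted p = 0.00176). The 2 that fell in RNAseq were Dctn4 (log2 fold change -0.77, adjusted p = 3.73e-05) and Dctn3 (log2 fold change -0.51, adjusted p = 0.0173), which lie outside the rule for naming and are dynactin subunits like Dctn1. Of the other measured genes of dynactin, Dctn2 (-0.18), Dctn6 (0.26), Actr1a (0.19) and Actr1b (0.04) had RNAseq log2 fold changes that did not pass, and Dctn3 did not pass in RF (0.16).

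Of 5 measured tubulins, Tubb2a rose in RNAseq (log2 fold change 0.57, adjusted p = 0.001601) while Tubb4a (log2 fold change -0.69, adjusted p = 3.89e-04) and Tubb5 (log2 fold change -0.34, adjusted p = 0.0393) fell, and Tubb2b rose in RF (log2 fold change 0.48, adjusted p = 0.02597). Beta-tubulins are near-identical, and reads shared between them make these values uncertain. Of 8 tubulin folding and modifying enzymes none rose, where 17.9% (RNAseq) and 20.8% (RF) of all measured transcripts rose. Tbcc, a tubulin folding cofactor, fell in both assays (log2 fold change -0.86, adjusted p = 0.0178 in RNAseq), and Svbp, the partner of the vasohibins that remove tyrosine from tubulin, in RF (log2 fold change -0.89, adjusted p = 0.0267). Of 3 other kinesins, Kif1c, a kinesin of vesicles in many cell types, fell in RF from 16.8, 19.8 and 16.7 RPKM in the untreated to 5.12 and 5.48 RPKM in the KCl cultures (log2 fold change -1.75, adjusted p = 5.88e-08) and in TE (log2 fold change -1.96, adjusted p = 1.63e-09), and Kif23, a kinesin of cell division, rose in RNAseq (log2 fold change 0.57, adjusted p = 0.00701) and RF (log2 fold change 0.51, adjusted p = 0.0367).

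Of 16 other microtubule-binding proteins, 5 rose and 1 fell in RNAseq and 3 rose and 2 fell in RF. Over all measured transcripts the shares that rose and fell were 17.9% and 15.1% in RNAseq and 20.8% and 20.1% in RF. Slain1, a partner of the plus-end proteins, rose in both (log2 fold change 0.55, adjusted p = 0.008902 in RNAseq and log2 fold change 0.70, adjusted p = 4.33e-04 in RF), as did Map7d1, which helps kinesin bind (log2 fold change 0.54, adjusted p = 0.00118 in RNAseq). Macf1, a linker of actin and microtubules, fell in both (log2 fold change -0.46, adjusted p = 0.00607 in RNAseq and log2 fold change -0.54, adjusted p = 5.14e-06 in RF). Mark3, a kinase of MAPs, rose in RNAseq (log2 fold change 0.38, adjusted p = 0.0467) and fell in RF (log2 fold change -0.54, adjusted p = 0.00936) and in TE (log2 fold change -0.85, adjusted p = 0.00601). Of 5 other intermediate filament genes, Nes, which marks progenitors, fell in both (log2 fold change -0.98, adjusted p = 1.99e-05 in RNAseq and log2 fold change -0.54, adjusted p = 5.94e-05 in RF), in the opposite direction to Ina, and Lmna (log2 fold change 0.59, adjusted p = 2.00e-05) and Vim (log2 fold change 0.29, adjusted p = 0.00208) rose in RF.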

How the data were processed

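The authors trimmed reads (Trimmomatic 0.32), removed rRNA reads with STAR 2.3.1z8, aligned the rest to the mm10 transcriptome with Bowtie2 2.2.2, kept reads mapping to several transcripts, and deposited counts per transcript region (bedtools 2.20.1), without normalization. Isoforms and near-identical genes can share reads. Regions carry a letter, read here as 5′UTR, CDS, 1 unnamed region and 3′UTR. Of 22534 transcripts, 22172 (98.4%) matched GENCODE M21 (GRCm38), which gave genes, lengths and coordinates.

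The 40 members and all lists were chosen with earlier results of these data known. Groups came from the library labels. Counts on all regions (RNAseq) or the CDS (RF) entered edgeR 4.0.16 (R 4.3.3; quasi-likelihood test, robust dispersions, TMM within assay), adjusted by the Benjamini-Hochberg method over 7262 transcripts, two-sided. Normalized RPKM used the TMM-scaled reads on measured transcripts. For TE the term tested was assay by treatment, and culture was a block, since the protocol splits 1 lysate per culture into both libraries; deviations of paired libraries from their group means had correlations between -0.07 and 0.06. In tests on simulated counts with 200 of 7262 transcripts changed by a log2 of 1.5, the share recovered was 99% (RNAseq), 97% (RF) and 88.5% (TE). False calls numbered 6, 9 and 7, and the counts of both assays were drawn independently. The member changes farthest from 0 were 1.07 in RNAseq, 1.14 in RF and -0.47 in TE. Recovery at the sizes seen in the members was therefore not simulated. The SE is the absolute log2 fold change over the square root of F. Summed markers were compared by exact permutation (10 splits). Alternatives were DESeq2 1.42.0, library totals, no filter beyond 1 read, 1 transcript per gene, CDS RNAseq reads, the transcript with the highest RF count, no block, and leaving out each culture. Members that passed in any assay, and the member with the highest RNAseq RPKM of each role, are given by culture, and of the other lists at most the 3 genes with the largest change in RNAseq and in RF. Promoters are from RefSeq (GRCm38.p6), the first entry of each symbol. Figures were drawn with matplotlib 3.10.9.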

Additional observations from a re-analysis of the deposited data

Results flagged for a closer look

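Besides the UTRs and the CDS, 1 further region of each transcript carries counts but no name in the sources used here, and its reads enter the RNAseq sums without a comparison of their own. In 2 measured members it held 10% or more of the RNAseq reads, with 16.2% for Stmn3 and 12.9% for Crmp1. What the region is was not tested.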

How the results depend on the processing

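The number of members that rose in RNAseq was 7, and was 4 with CDS reads only and between 4 and 11 when each culture was left out, with 11 without untreated culture 1 (Stmn2, Gap43, Kif5b and Clasp2 were added), 4 without untreated culture 3 and 4 without KCl culture 4. The number that fell was 1, and was 2 with library totals, 0 with no filter and between 0 and 1 without a culture (0 without untreated culture 2 or KCl culture 4). In RF, 6 rose, and 12 with no filter and between 4 and 10 without a culture, with 10 without untreated culture 1 and 4 without KCl culture 5, while 1 fell, and 0 with DESeq2, 4 with library totals, 0 with no filter and between 0 and 2 without a culture. Of the 15 calls on single members, 130 of 158 comparisons under the alternatives passed in the same direction, 28 missed the threshold and 0 reversed. Without a KCl culture the lone one left is assumed to vary like the untreated ones. Where the transcript with the highest RF count was the one already used, that alternative repeats the main result. Some changes that missed the threshold passed in fits that kept both KCl cultures. Besides those named, these were in RNAseq Gap43 with CDS reads only, Gap43 and Clasp2 with no filter and Map1a with library totals. In RF they were Stmn2, Stmn3, Crmp1, Dpysl3, Gap43 and Kif1a with no filter, and Map1b, Dclk1 and Dctn1 with library totals. RF also added Stmn2, Stmn3, Crmp1 and Kif1a without untreated culture 1, Kif1b, Kif5b and Dctn1 without culture 2 and Stmn2 without culture 3.

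Library totals in place of TMM moved the median of all transcripts to -0.10 in RNAseq and -0.14 in RF, and the share of rises among calls from 54.3% to 40.7% and from 50.9% to 33.7%. The medians of the members moved with it, from 0.19 to 0.09 and from 0.17 to 0.03. Over all transcripts RNAseq made 2395 calls, and 1441 with 1 transcript per gene, 1529 with CDS reads only, 4126 with no filter and between 1638 and 2637 without a culture. RF made 2971, and 1744 with 1 transcript per gene, 5255 with no filter and between 1698 and 3233 without a culture (1698 without KCl culture 5). TE made 421, and 262 with 1 transcript per gene, 266 with CDS RNAseq in the denominator, 182 with DESeq2, 420 without the replicate block and between 70 and 547 without a culture, with 70 without KCl culture 5 and 143 without KCl culture 4. TE called 0 members under each alternative, the fit without the block included, and dropping the block changed no call on a member. The median baseline TE was 2.301, and 3.31 with CDS RNAseq in the denominator. Except where fewer transcripts, reads or cultures entered a fit, the cause of these changes was not tested. Untreated culture 3 and KCl culture 4 had the fewest footprints, which limits the precision of RF and TE values there.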
